A study of Mus musculus with 28 samples.

Results

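The imprinted H19 and Igf2 axis was followed through the conversion of Pre-B cells into macrophages. It was taken as 8 genes out of the 55450 rows of the RNA table, matched by symbol: H19, Igf2, Igf2r, Grb10, Igf2bp1, Igf2bp2, Igf2bp3 and Igf1r. Contacts were read for the 3 promoter fragments of H19 and Igf2 among the 18175 fragments used as baits in the Promoter Capture Hi-C (PCHi-C) lists. The set was chosen by the RNA level of H19, which was far lower at 12h than at 0h, so the levels of H19 are given as a description without a test. The contacts have no replicate values and are also given as a description.

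All cells were C10, a mouse Pre-B line derived from HAFTL, and every group, including 0h, carried the CEBPalpha-ER transgene. The transgene is a rat C/EBPα joined to the hormone-binding part of the estrogen receptor, and estradiol brings the protein into the nucleus. The 0h cells were not induced, and the 1h, 12h and 48h cells had that time in 100 nM β-estradiol, 10 nM IL-3 and CSF-1. RNA-seq had 3 biological replicates per time point, and PCHi-C had 2 replicates per time point that were merged into 1 list. As all cells are 1 transformed line, the values describe this line and not B cell progenitors or macrophages of an animal. An induced control without C/EBPα was not analysed here, so effects of C/EBPα, estradiol, cytokines and time in culture cannot be told apart.

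H19 is a long noncoding RNA made from the maternal chromosome, and Igf2 is a fetal growth factor made mainly from the paternal chromosome. The genes share enhancers, and an imprinting control region upstream of H19 binds the insulator protein CTCF on the maternal copy. Igf1r carries the growth signal of IGF2 into the cell, whereas Igf2r takes IGF2 up for degradation and is itself imprinted. Grb10 encodes an imprinted adaptor that restrains insulin and IGF receptors, and Igf2bp1, Igf2bp2 and Igf2bp3 encode RNA-binding proteins named for their binding to Igf2 mRNA. Several of these genes are fetal genes that are low in adult tissues.

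On chromosome 7 of GRCm38, H19 lies at chr7:142575529-142578143 and Igf2 at chr7:142650766-142666816, both on the minus strand. Each hosts a microRNA, miR-675 in an exon of H19 and miR-483 in an intron of Igf2. Their mature sequences from RefSeq (GRCm38.p6) are shown because they are the short products of these transcripts, with the seed, bases 2 to 8, in capitals.
mmu-miR-675-5p, chr7:142577112-142577133, minus strand: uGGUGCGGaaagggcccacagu
mmu-miR-675-3p, chr7:142577078-142577099, minus strand: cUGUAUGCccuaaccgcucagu
mmu-miR-483-5p, chr7:142654968-142654989, minus strand: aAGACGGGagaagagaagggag
mmu-miR-483-3p, chr7:142654932-142654952, minus strand: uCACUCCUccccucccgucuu
The 4 seeds differ from each other, and none is shared with another of the 1679 mature mouse miRNAs in the table. The rows Mir675 and Mir483 were listed at 0 TPM in all 12 libraries, which were not made for small RNA, so the table holds no measure of the mature miRNAs.

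The fragment next to the H19 promoter fragment, chr7:142580249-142582473, holds 3 letter patterns of the CTCF type, 2.17 to 3.90 kb upstream of the H19 start. They are shown with 8 bases on each side, in the direction of the minus strand, and the capitals mark the match to CGNGGNGGC, searched on both strands. The sequence was read from chromosome 7 of GRCm38.p6, and no annotated gene overlaps the sites.
chr7:142580303-142580327, minus strand: cgatgccgCGTGGTGGCagtacaat
chr7:142580758-142580782, minus strand: tgctaccgCGCGGTGGCagcatact
chr7:142582028-142582052, minus strand: agttgccgCGTGGTGGCagcaaaat
Of the 2953 HindIII fragments of chromosome 7 within 10% of this length, 176 (5.96%) held the pattern at least once, and 1 (0.0339%), namely this one, held it 3 times. A related pattern, CCAGGGGGC, stands in an intron of Ifitm10, and its capitals mark the match.
chr7:142334434-142334458, plus strand: cacagccaCCAGGGGGCgctcatgc
It lies in the fragment chr7:142333898-142334990, which had the highest score of all H19 contacts at 0h. Of the 2044 fragments near that length, 13 (0.636%) held this pattern, which occurred 915 times on chromosome 7. The matches do not overlap, and both patterns were picked after matches had been seen, so they describe where the letters stand and not where a protein was bound.

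At 0h H19 was among the most abundant RNAs of these cells, ranking 34 of 19662 genes above 0 by mean TPM. TPM is a relative abundance scaled for gene length, and it adds up to the same total in every library. H19 had 346.37, 320.72 and 301 TPM at 0h. It had 346.97, 338.89 and 303.55 TPM at 1h, so the libraries of 0h and 1h overlapped. At 12h it had 2.17, 1.91 and 2.82 TPM, and at 48h 0.94, 0.52 and 0.74 TPM. All libraries of 12h and 48h lay far below those of 0h and 1h, and the mean was 140-fold lower at 12h and 440-fold lower at 48h than at 0h. On the log2(TPM + 0.1) scale H19 differed from 0h by 0.03 ± 0.20 (SE, n = 3 per time point) after 1h, by -7.09 ± 0.20 after 12h and by -8.63 ± 0.20 after 48h. Its rank was 51 after 1h, 6464 after 12h and 8594 after 48h.

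**Figure D1:**
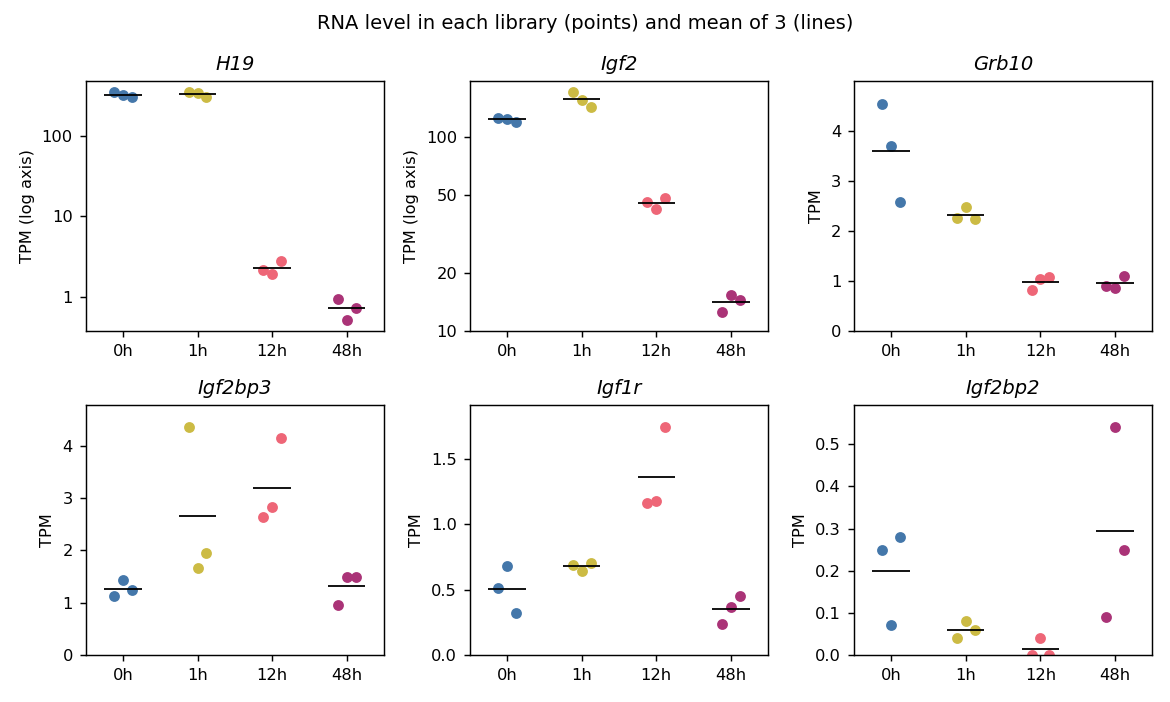
RNA level in TPM of the 6 members with a mean of at least 0.1 TPM, by time point; each point is 1 library and each line the mean of 3, on log axes for H19 and Igf2 and linear axes from 0 for the others. H19 sits between 301 and 347 TPM at 0h and 1h and under 3 TPM at 12h and 48h, while Igf2 stays between 42.5 and 48.4 TPM at 12h.

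Igf2 was lowered less than H19. It had 125.59, 124.19 and 119.34 TPM at 0h, and 169.92, 155.2 and 142.39 TPM at 1h. At 12h it had 46.06, 42.53 and 48.4 TPM, and at 48h 12.56, 15.3 and 14.41 TPM. No library of one time point overlapped those of another. Igf2 fell by 1.43 ± 0.14 on the log2 scale at 12h (adjusted p = 1.77e-05) and by 3.12 ± 0.14 at 48h (adjusted p = 1.45e-08), when its mean was 8.73-fold lower than at 0h. It fell again between 12h and 48h, by 1.69 ± 0.14 (adjusted p = 5.95e-06). The 1h difference, 0.34 ± 0.14, did not pass (adjusted p = 0.090) and was -0.32 after median-of-ratios scaling.

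The p-values come from limma, adjusted by Benjamini-Hochberg over the 16415 genes whose TPM averaged 0.1 or more, and a gene was called when its adjusted p was under 0.05. Of the 7 members other than H19, 0 passed at 1h, against 1.41% of all genes tested that were lower and 24.1% that were higher, and 3 (Igf2, Grb10 and Igf2bp3) had an unadjusted p under 0.05. At 12h 2 were lower (Igf2 and Grb10; background 7.82%) and 2 higher (Igf2bp3 and Igf1r; background 22.3%). At 48h 2 were lower (Igf2 and Grb10; background 27.2%) and 0 higher (background 15.9%), with the same 2 at an unadjusted p under 0.05. For the steps, 2 were lower from 1h to 12h (Igf2 and Grb10; background 15.0%) and 0 higher (6.98%), and from 12h to 48h 3 were lower (Igf2, Igf1r and Igf2bp3; 31.7%) and 1 higher (Igf2bp2; 4.10%). When a log2 difference beyond 2 was also asked for, Igf2 at 48h alone passed. The background of that stricter rule was 0.378% lower and 3.59% higher at 1h, 1.83% and 5.90% at 12h, and 10.0% and 6.43% at 48h. For the steps it was 2.60% and 2.07% from 1h to 12h, and 5.28% and 1.91% from 12h to 48h. Only 5 of the 7 could be tested, as Igf2r and Igf2bp1 were under the filter. In bulk RNA, fewer cells that make a transcript and less of it per cell cannot be told apart.

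Over all genes tested the median log2 difference from 0h was 0.59 for 1h, 0.34 for 12h and -0.18 for 48h. Median-of-ratios scaling, which sets the median gene equal between libraries, brought these to 0.02, 0.07 and 0.07. Under it 4.92% of genes were lower and 5.42% higher at 1h, 14.5% lower and 16.0% higher at 12h, and 22.0% lower and 24.5% higher at 48h. Against that shift H19 was at -0.63 at 1h, and its differences at 12h and 48h were -7.41 and -8.27.

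**Figure D2:**
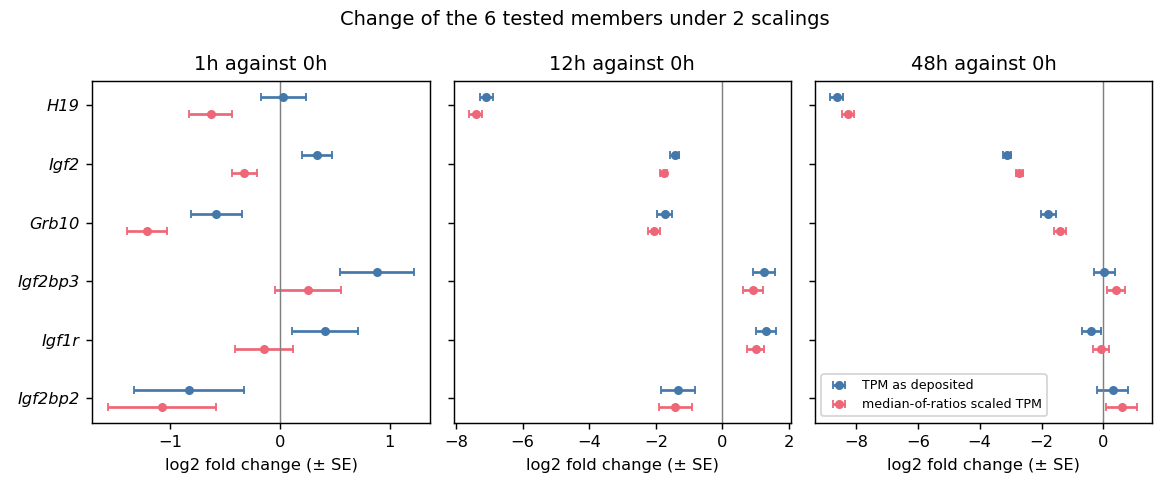
Log2 difference from 0h, with its standard error, of the 6 members that passed the filter, from TPM as deposited (blue) and after median-of-ratios scaling (red). H19 and Igf2 lie left of 0 at 12h and 48h under both scalings, and at 1h H19, Igf2 and Igf1r lie right of 0 in the deposited TPM and left of 0 after scaling.

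The ratio of H19 to Igf2, which needs no scaling between libraries, set the loss of H19 against that of its neighbour. H19 TPM over Igf2 TPM was 2.76, 2.58 and 2.52 at 0h and 2.04, 2.18 and 2.13 at 1h. It was 0.0471, 0.0449 and 0.0583 at 12h and 0.0748, 0.0340 and 0.0514 at 48h. Thus H19 was the more abundant RNA of the pair at 0h and 1h, and Igf2 at 12h and 48h. The ratio was lower in every 1h library than in any 0h library, and the libraries of 12h and 48h overlapped. The ratio is a description, since H19 enters it.

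Grb10 (chr11:11930508-12038683, minus strand) was the next imprinted member. It had 4.54, 3.7 and 2.58 TPM at 0h, then 2.25, 2.48 and 2.23 TPM at 1h. At 12h it had 0.83, 1.05 and 1.09 TPM, and at 48h 0.9, 0.87 and 1.11 TPM. All libraries after 0h lay below those of 0h, and 12h and 48h overlapped. Grb10 fell by 1.74 ± 0.23 at 12h (adjusted p = 0.000198) and by 1.78 ± 0.23 at 48h (adjusted p = 6.86e-05). Its 1h difference of -0.58 ± 0.23 did not pass (adjusted p = 0.086), and passed after median-of-ratios scaling, where it was -1.21 (adjusted p = 0.00186).

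Of the receptors, Igf1r (chr7:67952827-68233668, plus strand) peaked at 12h. It had 0.51, 0.68 and 0.32 TPM at 0h and 0.69, 0.64 and 0.7 TPM at 1h. It had 1.16, 1.18 and 1.74 TPM at 12h and 0.24, 0.37 and 0.45 TPM at 48h. The 12h libraries were above all others. Igf1r rose by 1.30 ± 0.30 at 12h against 0h (adjusted p = 0.00755) and fell by 1.69 ± 0.30 from 12h to 48h (adjusted p = 0.00122). At 48h it differed from 0h by -0.40 ± 0.30 (adjusted p = 0.329). Igf2r (chr17:12682406-12769664, minus strand) was listed at 0 TPM in all 12 libraries, and so was Airn, the antisense RNA that overlaps it. A library kit that does not mark strand cannot separate such a pair, and an exact 0 in a table without counts may be a failed estimate.

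Of the RNA-binding proteins, Igf2bp3 (chr6:49085223-49214957, minus strand) was the most abundant. It had 1.12, 1.44 and 1.25 TPM at 0h and 4.35, 1.66 and 1.94 TPM at 1h. At 12h it had 2.63, 2.82 and 4.15 TPM, and at 48h 0.95, 1.49 and 1.49 TPM. The 12h libraries lay above those of 0h and 48h, and 1 library of 1h was the highest of all. Igf2bp3 rose by 1.25 ± 0.34 at 12h (adjusted p = 0.0174), and this call was lost without 0h replicate 1 (adjusted p = 0.0530), 0h replicate 3 (0.0511) or 12h replicate 3 (0.0709). From 12h to 48h it fell by 1.22 ± 0.34 (adjusted p = 0.0156), a call lost after median-of-ratios scaling (-0.52, adjusted p = 0.264), after rescaling without the 20 most abundant genes (0.152), without 12h replicate 3 (0.0723) and without 48h replicate 1 (0.0660).

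Igf2bp2 (chr16:22059009-22163299, minus strand) was near the filter, with 0.07 to 0.28 TPM at 0h and 0.04 to 0.08 TPM at 1h. At 12h 1 library had 0.04 TPM and the others 0, and at 48h it had 0.09, 0.25 and 0.54 TPM. It differed from 0h by -1.34 ± 0.50 at 12h (adjusted p = 0.0662) and by 0.30 ± 0.50 at 48h (adjusted p = 0.669). The step from 12h to 48h, 1.64 ± 0.50, passed (adjusted p = 0.0246) and was lost without 12h replicate 1, 12h replicate 3 or 48h replicate 2 (adjusted p 0.0571, 0.0628 and 0.0906). It was also lost with a pseudocount of 1 (0.34, adjusted p = 0.0504) and with only the 6 libraries compared (adjusted p = 0.0546). Igf2bp1 (chr11:95957163-96005940, minus strand) was above 0 only in 2 libraries of 1h, at 0.14 and 0.11 TPM.

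Among the 9331 genes that averaged 1 TPM or more, the 5 whose log2 levels over the 12 libraries were most like H19 were Osgep (Pearson r = 0.994), E2f2 (0.991), Cdc6 (0.988), Ptprcap (0.987) and Cdca7 (0.987). E2f2 is a cell cycle transcription factor and Cdc6 loads the replicative helicase. Ptprcap encodes a partner of the leukocyte phosphatase CD45. Over the 4 time points Cdc6 averaged 3.41, 4.56, 0.233 and 0.0400 TPM, and Ptprcap 25.8, 15.8, 1.63 and 0.727 TPM. Igf2 ranked 133 by this measure (r = 0.943) and Grb10 232 (r = 0.928). The genes share the same 12 libraries and 4 time points, and any gene that was high at 0h and 1h and low later scores high. Pearson r does not take the size of the fall into account.

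The cells changed their identity over the same time. The 11 Pre-B markers used, such as Cd79a and Vpreb1, summed to 284 to 322 TPM at 0h and to 24.8 to 35.5 TPM at 48h. The 12 macrophage markers, such as Itgam and Cd14, summed to 15.2 to 16.1 TPM at 0h and to 611 to 737 TPM at 48h. Markers of stroma, liver, erythroid cells and T or NK cells summed to at most 0.34 TPM in any library, and 6 of the 7 stroma markers were at 0 in all. Since an exact 0 may be a failed estimate, these sums do not show that such cells were absent. The part of the change of identity in the levels of H19 and Igf2 was not tested.

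Genes around H19 held calls in both directions. Of 25 listed genes of the chromosome 7 cluster, 14 were tested and 8 were at 0 in all libraries. At 12h 5 were higher and 2 lower, against 22.3% and 7.82% of all genes tested, with a median difference of 0.22 against 0.34 over all genes. At 48h 4 were higher and 6 lower, against 15.9% and 27.2% (6 and 6 after median-of-ratios scaling, against 24.5% and 22.0%). The unscaled median was -0.22 against -0.18. Ctsd, a lysosomal protease of macrophages, rose from 5.08 ± 0.30 to 115 ± 33.8 TPM (SD, n = 3) at 48h, by 4.44 ± 0.20 on the log2 scale (adjusted p = 1.84e-08). Cd81, a surface protein of B cells and other cells, rose by 0.80 ± 0.14 (adjusted p = 0.000617). Igf2os, antisense to Igf2, fell by 4.39 ± 0.24 at 48h (adjusted p = 9.14e-08), from 3.17 ± 0.07 to 0.06 ± 0.04 TPM, and it was already lower at 1h (-0.79 ± 0.24, adjusted p = 0.0359). Without strand, reads of Igf2os and Igf2 cannot be told apart where they overlap. Tnni2, a troponin gene, fell by 3.75 ± 0.46 (adjusted p = 4.42e-05), and Mrpl23, of the mitochondrial ribosome, by 2.55 ± 0.37 (adjusted p = 0.000164). At 48h Lsp1 differed by 0.06 ± 0.17 (adjusted p = 0.809). Its start fragments were listed as contacts of H19 only at 0h and 1h. Tnnt3 and Syt8 start on fragments listed with H19 at all 4 times. They rose at 48h by 2.27 ± 0.81 (adjusted p = 0.0393) and 2.70 ± 0.43 (adjusted p = 0.000318). They averaged only 1.66 and 0.557 TPM at 48h. Gm49394, which overlaps Igf2 on the same strand, had at most 0.13 TPM.

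**Figure D3:**
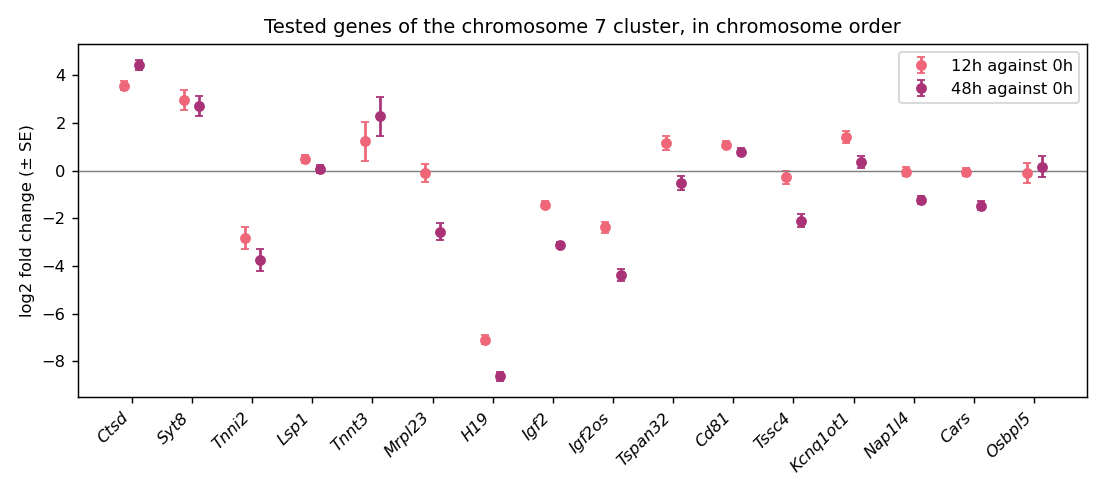
Log2 difference from 0h, with its standard error, of the 14 tested genes of the chromosome 7 cluster together with H19 and Igf2, in their order along the chromosome, at 12h and 48h. H19 is the lowest point at both times, Igf2 and Igf2os are below 0, and Ctsd and Syt8 are above 0.

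Genes that keep imprints or shape insulation were mostly lower at 48h. Of 14 listed, 11 were tested. At 48h 0 were higher and 9 lower, against 15.9% and 27.2% of all genes tested (1 and 8 after median-of-ratios scaling, against 24.5% and 22.0%). The unscaled median was -1.99 against -0.18 for all genes. Uhrf1, which recruits the maintenance methyltransferase to replicated DNA, fell by 6.31 ± 0.27 (adjusted p = 1.38e-08). Dnmt1, that methyltransferase, fell by 3.22 ± 0.21 (adjusted p = 3.04e-07). Ctcf averaged 10.2 TPM before induction, 18.9 after 1h, 6.47 after 12h and 3.49 after 48h, and it fell by 1.52 ± 0.18 at 48h (adjusted p = 4.04e-05). At 12h 5 of the group were lower and 1 higher, against 7.82% and 22.3% of all genes (8 and 1 after median-of-ratios scaling, against 14.5% and 16.0%). At 1h 5 were higher and 0 lower, against 24.1% and 1.41% (0 and 1 after median-of-ratios scaling, against 5.42% and 4.92%).

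Most other ligands of the growth factor system were listed at or near 0, and at 48h the signalling genes were called near the background share. Of 16 listed ligands and binding proteins, only Igfbp4 was tested, and it differed by 0.34 ± 0.19 at 48h (adjusted p = 0.176). Igf1 was listed at or near 0 in all libraries, and an exact 0 may here too be a failed estimate, since Pik3cb, a widely used kinase subunit, was listed at 0 in all 12 as well. Of 29 genes downstream of the receptors, 22 were tested. At 48h 3 were higher and 7 lower, against 15.9% and 27.2% of all genes (6 and 5 after median-of-ratios scaling, against 24.5% and 22.0%). The unscaled median was -0.17 against -0.18. Mtor, the growth kinase, fell by 2.59 ± 0.21 (adjusted p = 1.74e-06) and Grb7, an adaptor related to Grb10, by 2.76 ± 0.29 (adjusted p = 1.40e-05). Foxo3, a transcription factor held back by this pathway, rose by 1.02 ± 0.21 (adjusted p = 0.00190), and Pik3r1, a subunit of PI3 kinase, by 1.23 ± 0.35 (adjusted p = 0.0126). Of the 22 signalling genes, 10 were higher and 3 lower at 1h, against 24.1% and 1.41% of all genes. After median-of-ratios scaling these were 3 and 5, against 5.42% and 4.92%. At 12h 8 were higher and 3 lower, against 22.3% and 7.82%. Scaled, these were 3 and 3, against 16.0% and 14.5%.

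Other imprinted genes were also called near the background share at 48h. Of 42 listed, 19 were at 0 in all libraries and 18 were tested. At 48h 2 were higher and 6 lower, against 15.9% and 27.2% of all genes (5 and 6 after median-of-ratios scaling, against 24.5% and 22.0%). The unscaled median was -0.34 against -0.18. Commd1 fell by 2.28 ± 0.26 (adjusted p = 2.17e-05) and Copg2, a subunit of the coatomer, by 1.25 ± 0.20 (adjusted p = 0.000406), whereas Blcap rose by 2.25 ± 0.26 (adjusted p = 2.49e-05). At 1h 8 of the 18 were higher and 2 lower, against 24.1% and 1.41% of all genes. After median-of-ratios scaling these were 1 and 4, against 5.42% and 4.92%. At 12h 5 were higher and 1 lower, against 22.3% and 7.82%. Scaled, these were 4 and 4, against 16.0% and 14.5%. Of 9 genes listed for the oncofetal let-7 pathway, 5 were tested. At 1h 4 were higher and 0 lower, against 24.1% and 1.41% (2 and 0 after median-of-ratios scaling, against 5.42% and 4.92%). At 12h 3 were higher and 0 lower, against 22.3% and 7.82% (2 and 1 scaled, against 16.0% and 14.5%). At 48h 0 were higher and 2 lower, against 15.9% and 27.2% of all genes (3 and 2 after median-of-ratios scaling, against 24.5% and 22.0%). Their median was 0.35, above 0, against -0.18 for all genes. Hmga1, a chromatin protein, fell by 1.55 ± 0.22 (adjusted p = 0.000159) and Dis3l2, an RNA exonuclease, by 0.83 ± 0.20 (adjusted p = 0.00449), and Lin28a and Lin28b were listed at 0 in all libraries.

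The PCHi-C lists give the fragments called as contacts of each promoter. The H19 promoter lies on the HindIII fragment chr7:142576177-142580248. Before induction it had 26 listed contacts, then 20 after 1h, 16 after 12h and 19 after 48h, against a median of 6 for baits with a contact at each time. Fewer contacts were listed for 89.2%, 84.1%, 80.4% and 83.0% of those baits. H19 RNA was over 100-fold lower at 12h and 48h. Of its 0h contacts, 53.8% were listed again at 12h and 61.5% at 48h, against 53.2% and 55.9% of all 0h contacts. Counts of calls also move with the depth of each list, which the files do not hold.

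All H19 contacts at all 4 times lay on the side of Mrpl23, Tnnt3, Lsp1, Tnni2, Ctsd and Ifitm10, between 41.6 and 295 kb from the fragment, and none on the side of Igf2. One-sided contacts were found for 25.8% of baits with 12 to 30 contacts in the 0h list and for up to 32.6% in the later lists. The fragments of H19 and Igf2, 78.0 and 88.8 kb apart, were not listed as a contact of each other at any time. A pair that is not listed may still touch below the threshold of the caller.

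**Figure D4:**
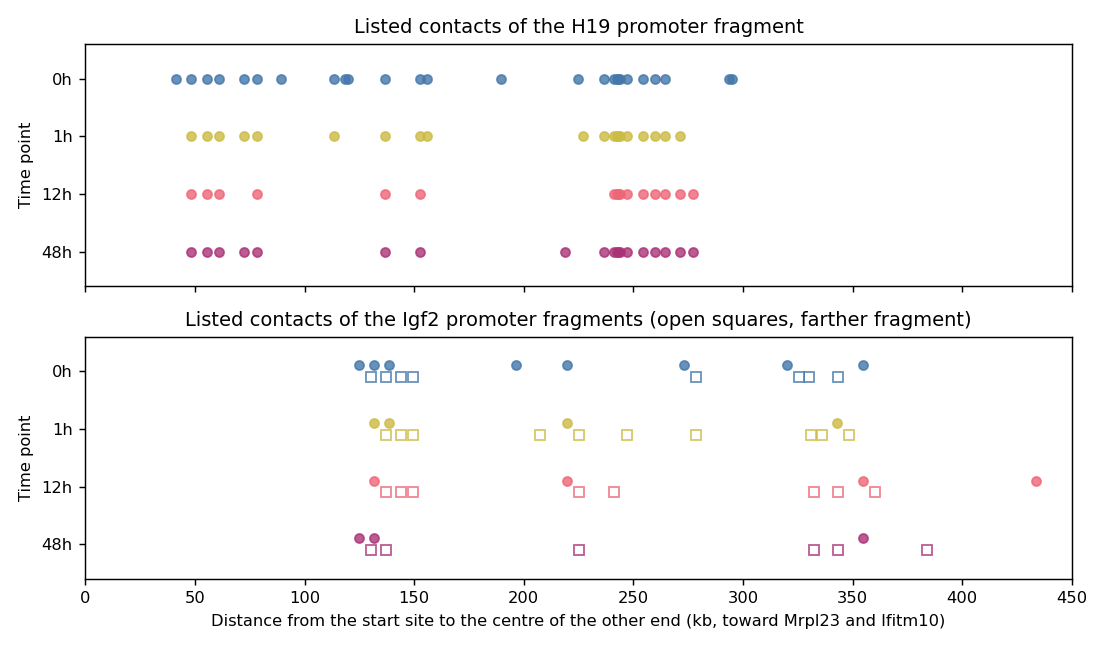
Listed contacts of the H19 fragment and of the 2 Igf2 fragments at each time point, by the distance in kb from the start site to the centre of the other end; each symbol is 1 listed contact, and open squares are the Igf2 fragment farther from H19. All contacts lie on 1 side. Many of H19 lie near 48 to 78 kb and near 237 to 277 kb at every time, with others between and, at 0h, beyond these ranges. The median distance of the H19 contacts from the fragment was 173 kb at 0h and 232 to 243 kb later.

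At 0h, where the list gives the CHiCAGO score of each contact, the highest H19 score was 24.59, for the fragment in Ifitm10 with the related CTCF-type pattern shown above, 244 kb from the H19 start. The fragment next to it, chr7:142334991-142335471, scored 22.27. The contact with the fragment of the Mrpl23 promoter, 48.4 kb away, scored 13.78. A contact with the Ctsd promoter fragment, 190 kb away, was listed at 0h with a score of 7.5 and at no later time, whereas Ctsd RNA was highest at 48h.

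The later lists hold whole numbers, read as read pairs per contact. The contact of H19 with the Mrpl23 fragment had 98, 70 and 65 read pairs at 1h, 12h and 48h. The Ifitm10 fragment with the pattern had 35, 25 and 18, and its neighbour 37, 20 and 14. Over the 15 H19 contacts listed at all 3 times, the sums at 1h, 12h and 48h were 596, 428 and 358 read pairs. The median ratio to 1h was 0.714 at 12h and 0.618 at 48h, and 14 and 15 of the 15 contacts were below 1h. Over all 36898 contacts within the same range of distances the median ratio was 0.750 at 12h and 0.875 at 48h. At 12h the H19 contacts were thus near the general level, and at 48h they were below it. The 3 Igf2 contacts listed at all 3 times had median ratios of 0.775 at 12h and 0.675 at 48h. Their 48h ratio was below the general level too. These are values of 1 merged list per time without a replicate check, and the H19 contacts share the H19 fragment.

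**Figure D5:**
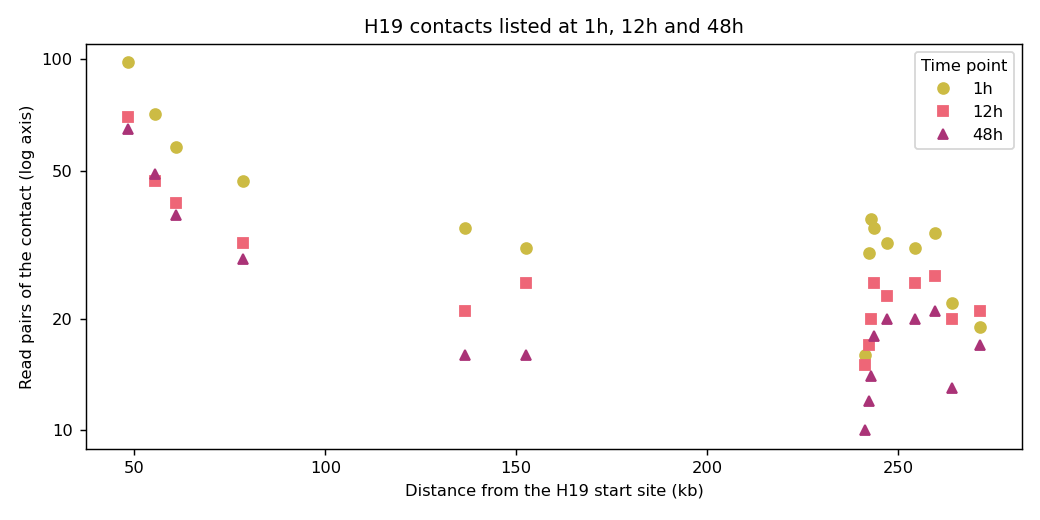
Read pairs (log axis) of the 15 H19 contacts listed at 1h, 12h and 48h, by distance in kb from the H19 start site. The 1h points lie above the 48h points for all 15 contacts, from 98 against 65 at the nearest to 19 against 17 at the farthest.

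The fragment with the 3 CTCF-type patterns next to H19 is not a bait and appears only as the other end of other promoters. The 4 lists gave it 8, 6, 4 and 3 contacts, from 0h to 48h. At 0h its partners were the promoter fragments of Krtap5-4, Ctsd, Gm26143, Syt8 with Tnni2, Lsp1, Tnnt3, Prr33 and Mrpl23. The partners at 48h were Ifitm10, Gm26143 and Mrpl23. Its contact with the Mrpl23 fragment was listed at all times, with 42 read pairs at 1h, 36 at 12h and 44 at 48h.

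Igf2 has starts on a near fragment, chr7:142650826-142661566, and on a far one, chr7:142665163-142668849. The near fragment had 8, 4, 4 and 3 contacts from 0h to 48h, and the far one 8, 10, 8 and 6. These counts were around the median of 6, and all contacts lay on the side of Mrpl23 and Ifitm10, beyond H19. The share of one-sided baits was not computed for baits with so few contacts. At 0h the highest Igf2 scores were both with the Mrpl23 fragment, 17.85 from the near and 16.0 from the far fragment. That contact was listed at all times from both, with 40, 34 and 27 read pairs at 1h, 12h and 48h from the near fragment and 40, 31 and 27 from the far one. Taking both fragments, the Igf2 promoters shared 10 of their 11 other ends with H19 at 0h, which was 90.9% of the Igf2 ends and 38.5% of the 26 H19 ends. They shared 7 of 10 at 1h (70.0% and 35.0%), 8 of 9 at 12h (88.9% and 50.0%) and 5 of 7 at 48h (71.4% and 26.3%). The share for other pairs of baits this close was not computed, so these values cannot be called particular to this pair.

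Of the 26 H19 contacts of 0h, 18 were listed again at 1h, 14 at 12h and 16 at 48h, that is 69.2%, 53.8% and 61.5%. For all contacts of the 0h list the shares were 57.6%, 53.2% and 55.9%. Of the 16 Igf2 contacts of 0h, 7, 7 and 6 were listed again (43.8%, 43.8% and 37.5%). When another end within 10 kb was accepted, the H19 shares were 88.5%, 84.6% and 88.5%. Under that rule the shares over all baits were 83.8%, 79.9% and 78.3%, and over the baits with 12 to 30 contacts at 0h they were 86.1%, 81.5% and 79.9%.

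Among the other members, the bait fragment of Grb10 had 8, 1, 0 and 4 contacts from 0h to 48h. That of Igf2bp3 had 2, 5, 5 and 4, and those of Igf2r, Igf2bp2 and Igf1r had at most 1. No bait fragment with a contact held a start of Igf2bp1.

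A pair of Igf2 promoters is shown, since Igf2 fell after C/EBPα was induced and a fall of Igf2 without strand or isoform data cannot be given to a single start. RefSeq windows matched 6 of the 8 members, and those of H19 and Igf2bp1 are named only. Each window is the 250 bases before the start, in the direction of Igf2, and capitals mark CCGCCC or its complement GGGCGG, the GC box.
Igf2, far start, chr7:142666817-142667066, minus strand: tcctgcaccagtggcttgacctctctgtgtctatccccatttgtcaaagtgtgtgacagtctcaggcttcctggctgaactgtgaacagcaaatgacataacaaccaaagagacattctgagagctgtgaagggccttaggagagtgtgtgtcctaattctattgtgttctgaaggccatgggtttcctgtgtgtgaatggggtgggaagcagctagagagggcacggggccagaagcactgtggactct
Igf2, a near start, chr7:142657497-142657746, minus strand: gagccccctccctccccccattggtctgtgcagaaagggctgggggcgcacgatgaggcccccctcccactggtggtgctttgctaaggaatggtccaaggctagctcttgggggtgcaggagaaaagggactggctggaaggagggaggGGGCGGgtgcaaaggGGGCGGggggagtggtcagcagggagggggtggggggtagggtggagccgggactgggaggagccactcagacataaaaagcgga
This near window held 2 GC boxes and was 66.0% G or C, and the far window held 0 and was 50.8% G or C. The near fragment has 2 more Igf2 starts, whose windows held 0 and 1 GC boxes and were 47.6% and 68.8% G or C, so near and far windows did not part by these letters. GC boxes were found in 32.7% of the 32851 windows of this length. The C/EBP-type letters TTGCNNAA and the TATA letters TATAAA, searched on both strands and not overlapping the GC boxes, were in none of these 4 windows, and were found in 9.56% and 12.4% of all windows. This says only that these letters are not in these windows.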

How the data were processed

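RNA-seq of 12 libraries and PCHi-C of 4 time points were used, and Hi-C was left out. For RNA-seq the authors merged technical replicates, trimmed reads (Trim Galore 0.6.2), mapped them to mm10 (HISAT2 2.1.0) and deposited TPM from RSEM. TPM keep no depth, so the count behind each value is unknown here, and the depths listed by the study were not used. The deposited PCHi-C lists are named as merged per the labels, and CHiCAGO was used for calling. Whether merging came before calling is not given in the sources used here. Each contact deposited for 0h carries a CHiCAGO score, whereas each contact deposited for 1h, 12h or 48h carries a whole number, read as a count of read pairs because both directions of a bait pair carry the same number and the numbers decrease with distance.

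limma 3.58.1 (R 4.3.3; lmFit, eBayes with trend) was run on log2(TPM + 0.1) on all 12 libraries in 1 model, keeping the 16415 genes that averaged 0.1 TPM or more, where the authors had used a count test. It was checked on simulated data. Fold changes understate low genes on this scale. The labels call the libraries biological replicates. Samples of the same number in different time points correlated in their deviations at -0.01 to 0.26, and 7 of 18 pairs were above 0.1. Samples of different numbers correlated at -0.18 to 0.11, so a structure shared by replicate number is possible. The main model did not pair the samples, and a replicate block was run as an alternative. Members, lists and tests were chosen with earlier results of these data known. Named genes of each list are up to 2 with the largest rise and 2 with the largest fall at 48h among called genes that averaged 1 TPM or more, and genes with a start on a contacted fragment; Ctcf, Lin28a, Lin28b, Igf1 and Igfbp4 were added after their values were seen. Genes like H19 were ranked by Pearson r. A further Pre-B marker of the list is not reported here. Contacts were counted once per pair from either side. The range of 12 to 30 contacts used for one-sided baits was set after the values had been seen. Gene positions are from GENCODE M21 (GRCm38), and sequences from RefSeq. Figures used matplotlib 3.10.9, and other steps Python 3.11.15, numpy 2.4.6 and pandas 2.3.3.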

Additional observations from a re-analysis of the deposited data

How the results depend on the processing

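Alternatives were pseudocounts of 0.01 and 1, no filter, a mean TPM of at least 1, median-of-ratios scaling, rescaling without the 20 most abundant genes, only the 6 libraries compared, a replicate block, leaving out each library, and larger fold changes. For the steps 12h against 1h and 48h against 12h they were added after seeing the data. The 0 members passing at 1h became 1 under median-of-ratios scaling, rescaling and only the 6 libraries, and 0 to 1 when a library was left out. The member passing was Grb10 under both scalings and without 0h replicate 3, and Igf2 with the 6 libraries. With a log2 difference beyond 2 asked for, the counts were 0 at 12h (4 before), 1 at 48h (2 before), 0 for 12h against 1h (2 before) and 0 for 48h against 12h (4 before). For 48h against 12h the count was 2 with a mean TPM of at least 1, and 2 to 4 when a library was left out, the lowest without 12h replicate 3. Directions reversed at 1h for H19 (-0.63 median-of-ratios, -0.46 rescaled), Igf2 (-0.32 and -0.15) and Igf1r (-0.15 and -0.0094). At 48h the differences ranged from -0.133 to 0.74 for Igf2bp2 and from -0.078 to 0.22 for Igf2bp3 when single libraries were left out, so their directions reversed. From 12h to 48h that of Grb10 reversed to 0.65, which passed as a rise (adjusted p = 0.0269), and 0.47 under the scalings and to 0.0039, 0.029 and 0.022 without single libraries. The replicate block changed no count of members (0, 4 and 2 at 1h, 12h and 48h). H19 and Igf2 kept their direction at 12h and 48h under each alternative listed here. With a score of at least 10, 13 H19 and 3 Igf2 contacts were left at 0h. Counting only rows that list the fragment first gave 9 Igf2 contacts at 0h and 7 at 12h. An other end within 10 kb raised the shares listed again to 84.6% for H19 at 12h, and to 87.5%, 81.3% and 68.8% for Igf2 at 1h, 12h and 48h. The cause of these changes was not tested. Levels under 1 TPM, such as those of Igf2bp2, rest on counts that TPM do not keep.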
